A study of Homo sapiens with 14 samples.

Results

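The 7 genes RABGEF1, RIN1, RIN2, RIN3, ZFYVE20, VPS45 and EEA1 encode RAB5 activators and early endosome effectors, and were picked by gene symbol from 18905 genes in a genome-wide CRISPR interference (CRISPRi) screen of an opioid receptor. The cells were a clonal derivative of HEK293 FLP-In, an established human embryonic kidney line. They carried a signal-sequence-FLAG-tagged delta opioid receptor (SSF-DOR) fused to the peroxidase APEX2, and dCas9-KRAB-BFP, a catalytically dead Cas9 that represses the gene whose start its guide RNA matches. Guide viruses were given at a multiplicity of infection of about 0.2, with the aim of 1 guide per cell, and the cells were selected with puromycin and grown for 8 days. All cells were then given 10 µM of the opioid peptide agonist DADLE for 90 min. With 50 µM H2O2 added for 1 min, APEX2 in intact cells turned Amplex UltraRed fluorescent, and the cells with the least signal (the bottom, or dim, quartile) and the most signal (the top, or bright, quartile) were sorted and their guides sequenced. Every group therefore shares the transgenes, the agonist and the peroxide. No cells without agonist and no RNA measurements were analysed here, so neither the knockdown of a member nor its level in these cells could be read.

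The guides came as 7 sublibraries, H1 to H7, each sorted and sequenced once as 1 bottom and 1 top library, with 5 guides per gene start. A target below is 1 gene start with its guides. RABGEF1 and VPS45 lay in H3 and EEA1 in H1, so 3 of the 7 genes were compared between top and bottom. RIN1, RIN2, RIN3 and ZFYVE20 lay in H4, where the top table ends after its first guides and holds none of theirs, so these 4 have a count in the bottom library alone. Library totals in the compared sublibraries ran from 18054418 to 34636612 counts. In H3 they were 27478717 in bottom and 31762301 in top, and in H1 22782124 and 28350283.

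RAB5 is the small GTPase of the early endosome. VPS9-domain proteins such as RABGEF1 (Rabex-5) and the RIN proteins load it with GTP, and rabaptin-5 (RABEP1) binds both RABGEF1 and active RAB5. Active RAB5 then recruits effectors that dock and fuse endosomes: the long coiled-coil tether EEA1, rabenosyn-5 (ZFYVE20, now named RBSN), and through rabenosyn-5 the Sec1/Munc18 protein VPS45, which acts on endosomal SNAREs. An internalised receptor passes through this compartment before it is recycled to the surface or passed on, through the exchange of RAB5 for RAB7, to lysosomes.

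CRISPRi guides act at gene starts, so annotated starts are shown for the 2 members whose 5 guide values all had the same sign. In RABGEF1, 1 of these guides lay close to the level of non-targeting guides. RefSeq annotation of GRCh38.p14 gave 10 promoter windows, from 250 bases before to 50 bases after a start, for 6 of the 7 members and none for RIN2. RABGEF1 had 4 such windows on chromosome 7, and the first 3, which resemble each other, are printed 5′ to 3′ on the gene's strand, with the 1 window of EEA1 on chromosome 12. Capitals mark the letters CCGGAAG, an ETS-type core that was searched on both strands.
RABGEF1 start 1, chr7:66654317-66654616 (+): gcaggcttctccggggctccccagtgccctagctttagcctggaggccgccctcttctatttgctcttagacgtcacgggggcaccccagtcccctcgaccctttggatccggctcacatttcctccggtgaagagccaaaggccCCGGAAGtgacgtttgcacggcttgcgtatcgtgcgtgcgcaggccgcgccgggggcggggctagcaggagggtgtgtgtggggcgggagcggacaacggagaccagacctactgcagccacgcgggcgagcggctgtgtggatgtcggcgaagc
RABGEF1 start 2, chr7:66681916-66682215 (+): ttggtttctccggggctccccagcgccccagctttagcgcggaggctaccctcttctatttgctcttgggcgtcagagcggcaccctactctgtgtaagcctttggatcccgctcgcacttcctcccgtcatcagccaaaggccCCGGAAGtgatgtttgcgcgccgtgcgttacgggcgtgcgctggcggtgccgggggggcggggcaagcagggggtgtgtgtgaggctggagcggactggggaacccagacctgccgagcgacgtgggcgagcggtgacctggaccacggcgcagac
RABGEF1 start 3, chr7:66740483-66740782 (+): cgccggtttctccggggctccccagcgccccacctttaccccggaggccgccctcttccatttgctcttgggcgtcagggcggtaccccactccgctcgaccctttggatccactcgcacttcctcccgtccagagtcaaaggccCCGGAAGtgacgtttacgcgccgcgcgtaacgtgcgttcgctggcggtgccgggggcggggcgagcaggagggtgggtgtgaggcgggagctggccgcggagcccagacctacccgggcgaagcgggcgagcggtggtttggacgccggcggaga
EEA1, chr12:92929246-92929545 (-): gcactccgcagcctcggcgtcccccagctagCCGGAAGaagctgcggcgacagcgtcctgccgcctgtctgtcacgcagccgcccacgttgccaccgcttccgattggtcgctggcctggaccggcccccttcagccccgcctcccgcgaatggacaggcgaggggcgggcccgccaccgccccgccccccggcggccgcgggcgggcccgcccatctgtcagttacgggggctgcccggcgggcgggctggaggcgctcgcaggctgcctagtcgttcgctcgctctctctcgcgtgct

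Windows 1 and 2 of RABGEF1 were identical at 78.3% of aligned columns, windows 1 and 3 at 81.7% and windows 2 and 3 at 82.2%. The fourth window, chr7:66755632-66755931, was AT-rich by comparison, with 40.3% G and C against 66.7%, 67% and 70.7% in the first 3. The marked letters stood in 6 of the 10 member windows and in 10.3% of all 35116 promoter windows of the annotation. The first 3 RABGEF1 windows, which resemble each other, are among these 6, so the 2 shares do not measure an excess. They describe the windows and say nothing of a bound factor. The guide names give a strand and a position but neither a chromosome nor a genome build, so which of the 4 starts the guides lie at was not established, and no guide position is set against a window here.

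RABGEF1 was the member whose guides were more common in bright cells. All 5 guides had a larger share of the top library than of the bottom library relative to non-targeting guides, with a mean log2(top/bottom) of 0.42 ± 0.25 (SD, n = 5 guides), or 1.34-fold. By name, the first guide (plus strand, position 66205722) went from 3400 counts in bottom to 5490 in top, and the second (minus strand, 66205731) from 2508 to 4431. The third (minus strand, 66205739) went from 2686 to 3135, about the ratio of the library totals. The fourth (plus strand, 66205934) went from 3958 to 6938 and the fifth (plus strand, 66206124) from 2936 to 4240. In counts scaled by the library total (CPM), the fourth guide stood at 144 in bottom and 218 in top, whereas the third stood at 97.7 and 98.7.

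**Figure D1:**
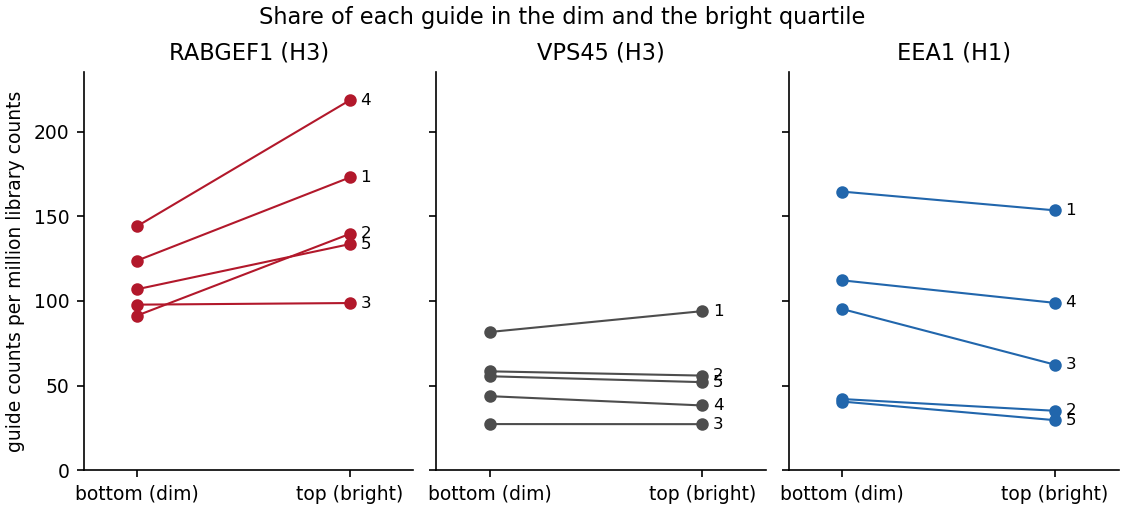
CPM, a guide's counts scaled by its library's total (vertical axis), of each of the 5 guides of RABGEF1, VPS45 and EEA1 in the bottom (dim) and top (bright) library of their sublibrary; lines join the 2 values of 1 guide and numbers give the guides in order of position. The RABGEF1 lines climb for guides 1, 2, 4 and 5 and run flat for guide 3, the VPS45 lines run close to flat, and all 5 EEA1 lines descend.

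After subtraction of the H3 non-targeting median, the 5 RABGEF1 guides had log2(top/bottom) values of 0.50, 0.62, 0.03, 0.61 and 0.33. Of the 290 non-targeting guides of H3, which ran from -0.68 to 0.83 with an SD of 0.21, 5 lay above the first guide, 4 above the second, 124 above the third, 4 above the fourth and 16 above the fifth. Thus 4 of the RABGEF1 guides sat in the upper edge of the non-targeting spread and 1 in its middle. The counting error of a RABGEF1 guide was 0.029 to 0.038 on the log2 scale, far below the spread among guides, so read depth did not set the precision here. The non-targeting guides, whose SD would be 0.056 from counting error alone, spread far beyond it too.

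The target was tested against all equal-sized sets that can be drawn from its own and the non-targeting guides. In this two-sided exact permutation test RABGEF1 gave p = 8.58e-05 and a Benjamini-Hochberg adjusted p of 0.00387 over 18116 targets, and it was called higher in top at the threshold of 0.05. It ranked 100 of 3323 in H3 from the top side. Of the 3 members compared, 1 was called higher in top and 0 higher in bottom, beside 2.37% and 1.52% of all targets, and 4.18% and 3.31% of H3 targets, called in those directions. The p-values compare 2 libraries of 1 sort and carry no error between sorts. RABGEF1 lost its call in the permutation test when the guide farthest from 0 was left out of every target (mean 0.37, adjusted p = 0.0777). It also lost it in a rank-sum test against all guides of H3 (adjusted p = 0.0796). It passed the other 9 alternatives that could be tested, 1 of which was edgeR's quasi-likelihood test with an adjusted p of 0.0233.

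The RABGEF1 signal cannot be assigned to RABGEF1 alone. KCTD7, a BTB-domain adaptor protein of cullin-3 ubiquitin ligases, lists 5 guides that equal the 5 of RABGEF1 in strand, position and count in both libraries, so the 2 targets are 1 measurement entered under 2 names. KCTD7 was the only gene with guides within 1000 bases of any member's guides. In GRCh38.p14 the KCTD7 start lies 25686 bases before the first RABGEF1 start and 127001 bases before the fourth. The screen as a whole held 334 positions listed under more than 1 target on a chromosome, and the counts were identical for all 334. RABGEF1 guides were also abundant, with bottom and top counts together 1.19 ± 0.35 above the non-targeting median on the log2 scale (SD, n = 5 guides; 0.78 to 1.68). The 102 H3 positions listed more than once had a median of 1.08 on that scale (quartiles 0.71 and 1.38), against 0.01 (quartiles -0.40 and 0.33) for 16410 guides listed once.

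Among the genes that act with RABGEF1, its partner RABEP1 and the other VPS9-domain activator GAPVD1 were also called higher in top. GAPVD1, a RAB5 exchange factor that binds clathrin adaptors, had the larger mean, 0.80 ± 0.47 (SD, n = 5 guides; adjusted p = 6.58e-06), and RABEP1 had 0.54 ± 0.35 (SD, n = 5 guides; adjusted p = 3.99e-04), both by the permutation test. GAPVD1 guides went from 629 to 1294, 786 to 1849, 1269 to 3028 and 907 to 2222 counts, and the fifth went from 1522 to 1712. The first 4 had values of 0.84, 1.04, 1.06 and 1.10, above every one of the 290 non-targeting guides of H3, and the fifth had -0.03. RABEP1, in H2, had guides with 1691 and 3773, 854 and 2009, 1979 and 2511, 704 and 1342, and 2591 and 4453 counts in bottom and top, or 0.81, 0.89, -0.00, 0.58 and 0.44. As in RABGEF1, 4 guides lay on 1 side and 1 lay at the non-targeting median. GAPVD1 kept its call in 11 of 12 alternatives and RABEP1 in 10; the rank-sum test against all guides ended both (adjusted p = 0.0617 and 0.0891), and edgeR ended RABEP1 (adjusted p = 0.0503).

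**Figure D2:**
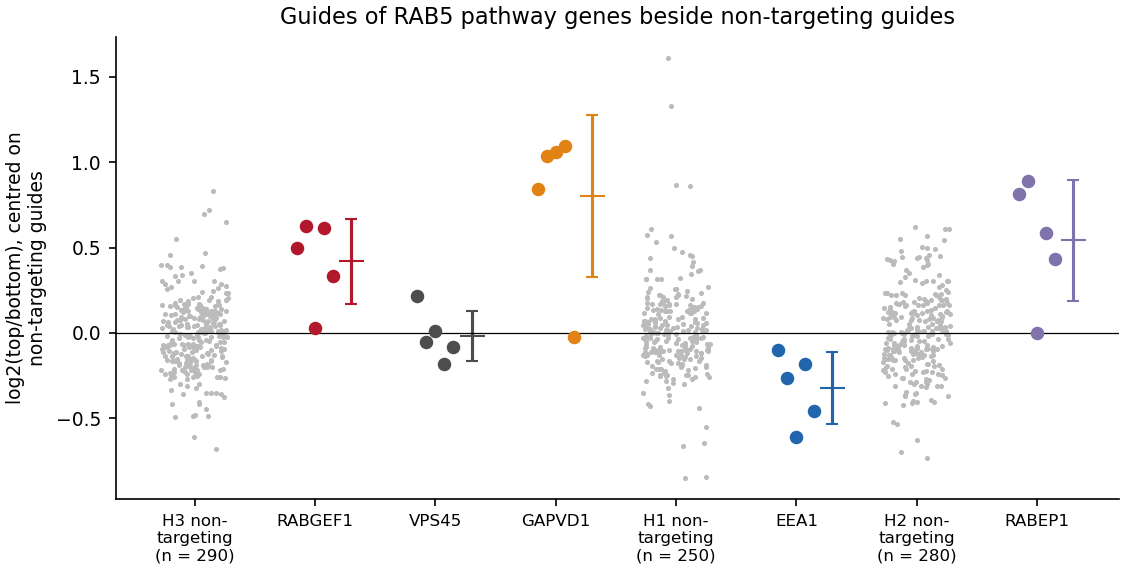
Centred log2(top/bottom) of every guide (vertical axis) of RABGEF1, VPS45, GAPVD1, EEA1 and RABEP1, each group placed after the non-targeting guides (grey) of its sublibrary; crossbars with whiskers give the mean and SD over 5 guides. RABGEF1 (mean 0.42), GAPVD1 (0.80) and RABEP1 (0.54) each have 4 guides clear of 0 and 1 guide at it, VPS45 lies around 0 and all 5 EEA1 guides lie below it.

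Position did not separate the RABGEF1 guide with a value near 0 from the guides with higher values. RABGEF1 guides spanned 402 bases, and the third guide, at 0.03, lay 17 bases from the first guide, at 0.50, and 8 from the second, at 0.62. In GAPVD1 the 4 high guides lay within 37 bases on the minus strand and the low guide lay 457 bases from the first. In RABEP1 the guide at the non-targeting median lay 42 bases from the first guide, between guides with values of 0.89 and 0.58. These are single guides of 3 targets, and no test was made of position.

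**Figure D3:**
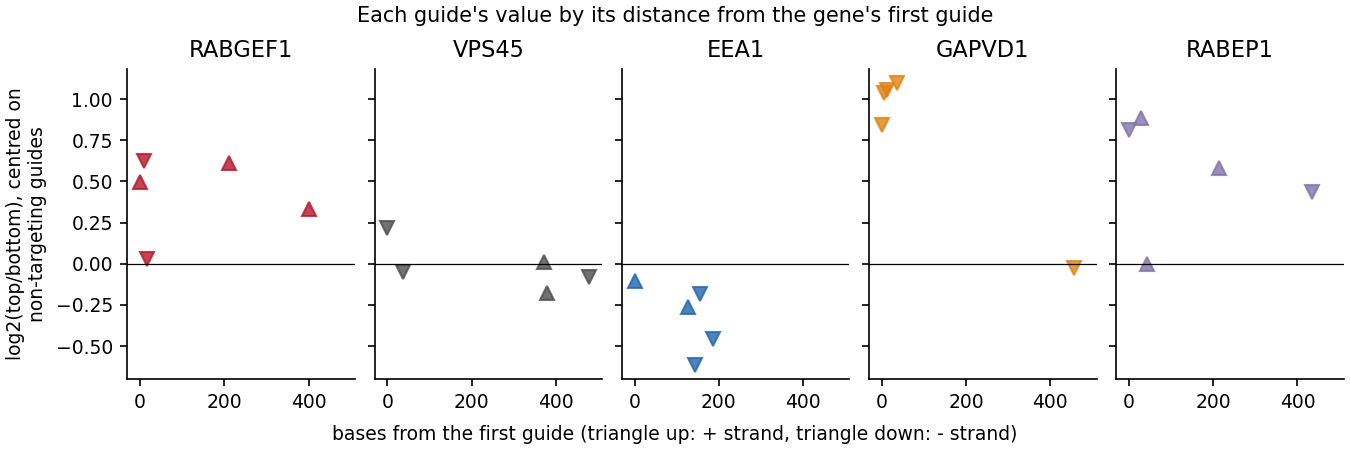
Centred log2(top/bottom) of each guide (vertical axis) against its distance in bases from the lowest-positioned guide of the target, with upward triangles for plus-strand and downward triangles for minus-strand guides. The RABGEF1 guide at 0.03 sits beside 2 high guides, the GAPVD1 guide at -0.03 sits 457 bases from the first guide and apart from the other 4, and the EEA1 guides, within 187 bases, are all below 0.

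EEA1, the tether that bridges early endosomes, was the only compared member with every guide on the dim side, but it did not pass the test. Its guides went from 3748 counts in bottom to 4350 in top, 957 to 994, 2168 to 1766, 2554 to 2801 and 923 to 837. Since the H1 top library was the deeper one, all 5 shares were lower in top, with log2 values of -0.10, -0.26, -0.61, -0.18 and -0.46. The mean was -0.32 ± 0.21 (SD, n = 5 guides), which is 1.25-fold more in bottom. Of the 250 non-targeting guides of H1, 76, 18, 4, 41 and 5 lay below the 5 guides in that order. EEA1 ranked 52 of 2555 in H1 from the bottom side, with p = 0.0181 and an adjusted p of 0.230 in the exact permutation test. It passed in 1 of 12 alternatives, the rank-sum test against non-targeting guides (adjusted p = 0.0479), and the adjusted p of the 12 ran from 0.0479 to 1.

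The size of a change that could be called differed between the sublibraries. The non-targeting guides of H1 had an SD of 0.27 and ran from -0.85 to 1.61, and the smallest called means in H1 were 0.50 on the bright side and -0.48 on the dim side, with 46 and 19 of 2555 targets called. In H3 those limits were 0.32 and -0.31, with 139 and 110 of 3323 targets called. A mean the size of that of EEA1 was thus below what was called in H1, and RABGEF1 and VPS45 were read in the sublibrary with the narrower spread. The 3 members cannot be ranked across H1 and H3 by their calls.

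VPS45, which pairs with rabenosyn-5 on endosomal SNAREs, stayed at the non-targeting level. Its guides had 2242 and 2983, 1604 and 1774, 748 and 863, 1201 and 1214, and 1524 and 1651 counts in bottom and top. The log2 values were 0.22, -0.05, 0.01, -0.18 and -0.08, with a mean of -0.02 ± 0.15 (SD, n = 5 guides; adjusted p = 0.977, exact permutation test), and both signs were present. All 5 lay well inside the range of the H3 non-targeting guides, with 31 of 290 above the highest and 61 below the lowest. VPS45 ranked 1948 of 3323 in H3. Its guides spanned 478 bases, lay on both strands and were of ordinary abundance, at -0.21 ± 0.63 against the non-targeting median on the log2 scale (SD, n = 5 guides). Since knockdown was not measured, the value does not show that loss of VPS45 leaves the signal unchanged.

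The RIN proteins, which couple RAS signalling to RAB5 activation, and ZFYVE20 could be described in the H4 bottom library alone. Non-targeting guides there had a median of 1363.5 counts (188 to 2950, n = 250). RIN1 guides had 1268, 914, 2252, 1605 and 806 counts in order of position, RIN2 guides 901, 608, 980, 1833 and 1626, and RIN3 guides 963, 985, 1704, 1452 and 2134. Each RIN gene thus had guides on both sides of the non-targeting median. ZFYVE20 guides had 469, 1476, 1046, 889 and 1017 counts, and 4 of the 5 lay below it. A count in the dim quartile holds the guide's share in the virus pool, growth over 8 days and sorting together. Without top counts for these guides sorting cannot be set apart. Without a library from before growth, virus-pool share and growth cannot be told apart either.

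On the log2 scale against the non-targeting median, mean abundance in the H4 bottom library was -0.10 ± 0.60 for RIN1, -0.31 ± 0.65 for RIN2, 0.02 ± 0.50 for RIN3 and -0.57 ± 0.60 for ZFYVE20 (SD, n = 5 guides each). The order from high to low was RIN3, RIN1, RIN2 and ZFYVE20, and no neighbours in it differed by more than the SD over their guides. The non-targeting guides themselves had an SD of 0.71. Of 2410 targets in H4, 68.6% had a lower mean than RIN3, 54.4% than RIN1, 31.4% than RIN2 and 13.3% than ZFYVE20. None of the 4 stood outside the bulk of H4, whose median target was at -0.13. RIN2 guides were named for a single transcript, ENST00000255006.6, and all lay on the plus strand within 395 bases.

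**Figure D4:**
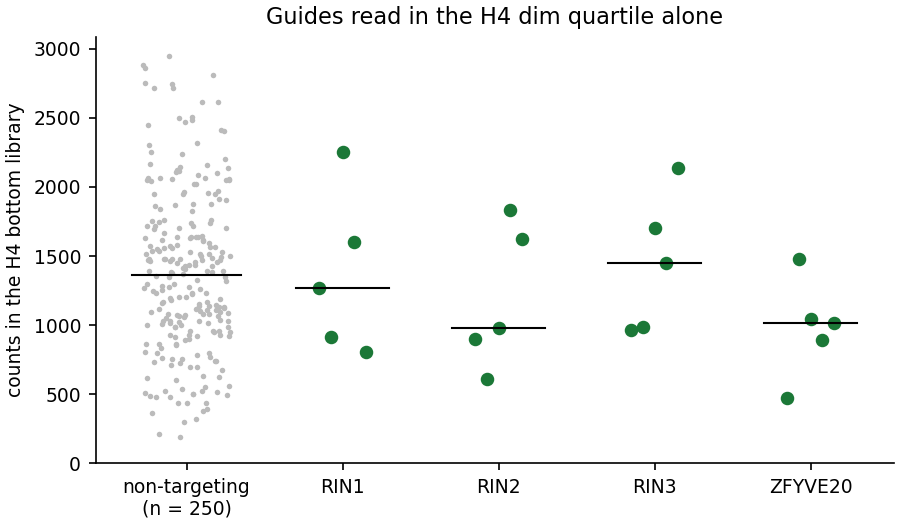
Counts of single guides (vertical axis, linear) in the H4 bottom library for the 250 non-targeting guides (grey) and the 5 guides each of RIN1, RIN2, RIN3 and ZFYVE20 (green); horizontal lines are medians. All 20 member guides lie within the non-targeting range of 188 to 2950, and 4 of the 5 ZFYVE20 guides lie below the non-targeting median of 1363.5.

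Genes that work beside these 7 were taken as 10 lists of 79 genes, 60 of which were compared and the rest of which lay in H4. Counted once each, 9 of the 60 were called higher in top and 2 higher in bottom, beside 430 and 276 of 18116 targets. The lists were chosen with earlier results of these data known, so these counts do not measure an excess over the background. The median of the 60 genes was 0.02, against 0.01 over all targets, and 46 of the 60 had a mean within 0.25 of 0. H3, where the smallest means were called, held 29 of the 60, 5 of the 9 and 1 of the 2. Adjusted p-values in the following paragraphs are from the exact permutation test over all targets.

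Of the 3 RAB5 isoforms, only RAB5A was compared. It lay in H1, had a mean of 0.06 ± 0.15 (SD over 5 guides, adjusted p = 0.910) and was not called. RAB5B and RAB5C lay in H4, so the values do not describe RAB5 as a whole. Among the other VPS9-domain proteins and rabaptins, 6 of 8 genes were compared, 2 were called higher in top (GAPVD1 and RABEP1) and 1 higher in bottom, with a list median of 0.02. The gene on the dim side was ANKRD27 (Varp), a VPS9-domain protein known as a RAB21 exchange factor and a RAB32 and RAB38 partner, at -0.32 ± 0.19 (SD, n = 5 guides; adjusted p = 0.0412). EEA1 had the same mean to 2 decimals and was not called in H1. The ANKRD27 call was lost in 4 of 12 alternatives, with an adjusted p of up to 0.456.

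In a list of other RAB5 effectors and of RAB GTPase-activating proteins, 8 of 10 genes were compared. The 1 called was RABGAP1, at -0.43 ± 0.11 (SD over 5 guides, adjusted p = 0.00342). RABGAP1 carries a TBC domain, the fold that switches RAB proteins off, and all 5 of its guides were higher in bottom. Whether RABGAP1 acts on RAB5 was not tested, and its place in the list does not make it a RAB5 regulator. RABGAP1 passed 10 of 12 alternatives, and the call was lost without the farthest guide of every target (adjusted p = 0.0677) and in edgeR (adjusted p = 0.0503). The list median was -0.09. In the VPS34 complex, which makes the lipid PI3P that EEA1 and rabenosyn-5 bind through their FYVE domains, 0 of 4 genes were called, and the farthest from 0 was the kinase PIK3C3 at -0.11 ± 0.16 (SD, n = 5 guides; adjusted p = 0.779).

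Among other FYVE-domain proteins 15 of 17 were compared, with a median of -0.00, and 1 was called higher in top. This was HGS, the ESCRT-0 subunit that sorts ubiquitinated receptors towards lysosomes, at 1.15 ± 1.39 (SD, n = 5 guides; adjusted p = 0.00126). Only 3 of its 5 guides lay on the bright side, with the highest at 2.93 and the lowest at -0.27, and it passed 8 of 12 alternatives. The call was lost without the farthest guide of every target (adjusted p = 0.0622), in edgeR (adjusted p = 0.744) and in the rank-sum tests against non-targeting guides (adjusted p = 0.844) and against all guides (adjusted p = 0.845).

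CORVET, the tether that binds RAB5 on early endosomes, was the list with the most calls for its size. Of 5 subunits compared, all in H3, 4 were called higher in top and 0 higher in bottom, beside 4.18% and 3.31% of H3 targets. The list median was 0.55. The 4 called are subunits that CORVET shares with HOPS, the RAB7 tether of late endosomes, and the values therefore do not separate the complexes. VPS16 had 2.11 ± 0.51 (SD, n = 5 guides; adjusted p = 4.61e-08), VPS11 had 0.80 ± 0.44 (adjusted p = 9.08e-06), VPS18 had 0.55 ± 0.52 (adjusted p = 8.60e-04) and VPS33A had 0.40 ± 0.48 (adjusted p = 0.0172). Of the subunits particular to CORVET, TGFBRAP1 lay in H4 and VPS8, named here after its value was seen, had 0.29 ± 0.22 (SD, n = 5 guides; adjusted p = 0.0748) and was not called. VPS16 and VPS11 passed all 12 alternatives, VPS18 passed 9 and VPS33A 8. VPS18 and VPS33A lost their calls in edgeR (adjusted p = 0.400 and 0.584). They also lost them in the rank-sum tests against non-targeting guides (adjusted p = 0.230 and 0.317) and against all guides (adjusted p = 0.368 and 0.524). Without the farthest guide of every target VPS33A was not called either (mean 0.23, adjusted p = 0.885, permutation test).

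VPS33A is also a Sec1/Munc18 protein, the family of VPS45. In a list of that family and VIPAS39, the binding partner of its member VPS33B, 5 of 8 genes other than VPS45 were compared and VPS33A was the 1 called, with a list median of -0.01. The endosomal SNAREs that such proteins act on gave 0 calls among 6 of 10 genes compared, and the farthest from 0 was VTI1B at 0.07 ± 0.32 (SD, n = 5 guides; adjusted p = 0.884). The EHD and RAB partners of rabenosyn-5 in recycling gave 0 calls among 5 of 8 genes compared, with EHD1, a membrane-remodelling ATPase, farthest at -0.08 ± 0.26 (SD, n = 5 guides; adjusted p = 0.833).

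The genes of the exchange of RAB5 for RAB7 were all compared, and 2 of 6 were called higher in top, with a list median of 0.17. RAB7A, the late endosome GTPase, had 1.00 ± 1.09 (SD, n = 5 guides; adjusted p = 0.00180) and C18orf8, a subunit of the MON1-CCZ1 activator of RAB7 now named RMC1, had 0.46 ± 0.29 (SD, n = 5 guides; adjusted p = 0.0293). Both had all 5 guides on the bright side. RAB7A was uneven, from 0.08 to 2.50, and without the farthest guide of every target neither was called (adjusted p = 0.0857 and 0.520). RAB7A kept its call in 9 of 12 alternatives and also lost it in edgeR (adjusted p = 0.662) and in the rank-sum test against all guides (adjusted p = 0.0502). C18orf8 kept its call in 6 of 12. Its guides ran from 0.18 to 0.94. With at least 100 counts required in both libraries its mean was 0.34 (SD over guides 0.12, adjusted p = 0.174, permutation test). Its call therefore leaned on a guide with few counts.

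**Figure D5:**
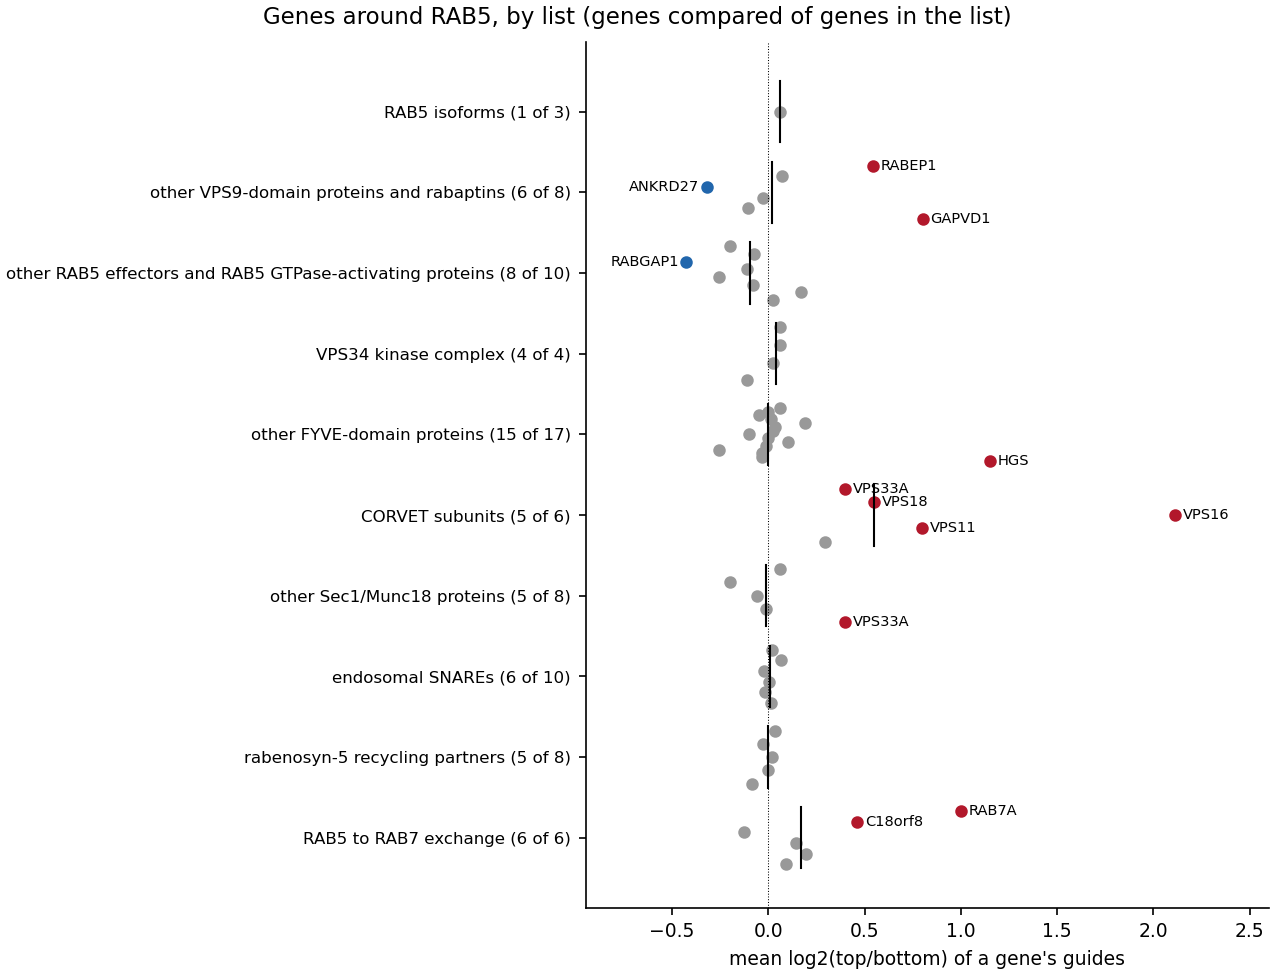
Mean centred log2(top/bottom) over guides (horizontal axis) of each compared gene in 10 lists of genes around RAB5 (rows; numbers give the genes compared of those listed), with genes called higher in top in red, higher in bottom in blue and the rest in grey; black bars are list medians. Most of the 60 genes lie near 0, and the CORVET row stands to the right with a median of 0.55; VPS33A appears in 2 rows, and the Sec1/Munc18 row includes VIPAS39, a partner of VPS33B.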

How the data were processed

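The deposited files hold raw guide counts, 1 table per library; Bowtie is named, without a version, in the submitters' processing notes, and the sources used here give no genome build for the guide names. Counts were made by the authors from PCR reads without molecular identifiers, so the counting errors given are those of read counts only. Each ± value is an SD over guides. A guide's value is log2 of its top over its bottom share, with a pseudocount of 1, minus the median value of its own sublibrary's non-targeting guides; guides needed 50 counts in either library and targets 3 guides. The 12 compared libraries gave 91088 of 91463 guides and 18116 targets. Each target's mean was tested with an exact two-sided permutation test on a 0.001 log2 grid, with Benjamini-Hochberg adjustment over all targets, in Python 3.11.15 (numpy 2.4.6, pandas 2.3.3). Alternatives included edgeR 4.0.16 (R 4.3.3) with guides as blocks. The test was tested on simulated data. No replicate exists in any group, and p-values compare libraries, not conditions. Named genes are all members, genes sharing or neighbouring their guides, and in each list every called gene or, with none, the farthest from 0. Members and lists were chosen with earlier results of these data known. The sequences of the guides were not used here. Of 18905 symbols, 18814 matched RefSeq.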

Additional observations from a re-analysis of the deposited data

How the results depend on the processing

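RABGEF1 stayed positive in all 12 alternatives that gave a value (0.37 to 0.50) and kept its call in 9 of the 11 tested; it was lost without the farthest guide of each target (0.37) and in the rank-sum test against all guides (0.42). Leaving out guides listed under more than 1 target removed all 5 of its guides and gave no value. Leaving out each of its guides in turn, while all other targets kept theirs, gave 0.37 to 0.52, called 5 of 5 times (adjusted p = 0.00138 to 0.0412, permutation test). The farthest RABGEF1 guide is the second, so leaving it out gave the same mean, 0.37, both ways. The adjusted p was 0.0412 when RABGEF1 alone lost a guide and 0.0777 when every target did (permutation test). The 5 calls therefore do not show that the result withstands loss of that guide. EEA1 stayed negative (-0.32 to -0.25) and was called in 1 of 12, the rank-sum test against non-targeting guides (-0.32); without each guide in turn it ran from -0.38 to -0.25 and was called 0 of 5 times. VPS45 ran from -0.08 to -0.02 over 13 alternatives, with 0 of 12 called, and from -0.075 to 0.024 without each guide in turn, turning positive (0.024) without the fourth guide. The count of targets called fell from 430 higher in top and 276 higher in bottom to 204 and 108 without the farthest guide, 222 and 173 in the rank-sum test against all guides and 139 and 103 in edgeR, which used 17071 targets with 5 guides. No paired analysis was possible because each group is 1 library with no replicate. Read depth set a counting error of 0.029 to 0.072 per guide on the log2 scale over the 3 compared members, below the non-targeting SD of 0.21 in H3 and 0.27 in H1.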
